A study of Homo sapiens with 12 samples.

Results

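The data are RNA-seq read counts from a co-culture of a pair of human cell lines, sampled at 24 h: Jurkat cells, a T cell leukaemia line, carrying LAG3 and PD1, and Raji cells, a Burkitt lymphoma B cell line, carrying PDL1. The question here is whether the transcriptome with either antibody alone lay apart from the mean of the transcriptomes with both antibodies and with neither. The single antibodies gave 6 of the 12 libraries: 3 with anti-LAG3 (MK4280) plus isotype and 3 with anti-PD1 (MK3475) plus isotype. The other 6 were 3 with anti-PD1 and anti-LAG3 together and 3 with isotype only. Each arm had 1 library at 0.01, 0.1 and 1 µg/ml of each of its antibodies, and the libraries were placed by the treatment their labels name. In every arm the Raji cells had been loaded with SED before the co-culture, and the cells of multiple wells were pooled for a library. Nothing in the labels says that a library repeats another culture, so the 3 doses stand in for replicates of an arm. The p-values then cover only how these 12 libraries vary. That spread may be technical, and it takes in any dose response that differs between arms.

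PD1 and LAG3 are inhibitory receptors of T cells. PD1 binds PDL1 and recruits phosphatases that dampen signals from the T cell receptor and CD28, while LAG3 binds MHC class II and lowers signalling of the receptor complex. Blocking either one raises the activation of T cells, and a pair of blocking antibodies may add to each other or not. On the log2 scale, antibodies whose effects simply add give a mean of the single arms equal to the mean of the combination and isotype arms. The log2 difference used throughout is the mean of both single-antibody arms minus the mean of the combination and isotype arms, with dose as a block. It is 0 when the effects add, above 0 when a gene lies higher with 1 antibody than the other 2 arms predict, and below 0 when it lies lower.

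The 12 libraries held 23593973 to 36581754 counts. Summed over the tested genes of their lists, the Jurkat T markers stood at 2163 to 2486 CPM in the single-antibody libraries and at 2047 to 2515 CPM in the combination and isotype libraries (CPM, counts scaled by library size and TMM factors). The Raji B markers summed to 11650 to 12330 CPM and to 11490 to 13170 CPM. None of the 30 T and 36 B markers was at 0 in all libraries, and PTCRA, with at most 9 counts in a library, was the only one under the filter on low counts. CD274, the gene of PDL1, and PDCD1, the gene of PD1, averaged 86.7 ± 4.55 and 215 ± 10.8 CPM with single antibodies and 92.2 ± 4.59 and 203 ± 17.1 CPM in the other libraries (SD, n = 6 each), and neither passed the test (adjusted p = 0.141 and 0.149, edgeR's quasi-likelihood test). LAG3 had 0 to 2 counts in every library, so the LAG3 that the labels give to the Jurkat line was not seen in the counts of its gene symbol. IL2 and IFNG had 0 to 4 counts each. Where a library had no count, counting error leaves room for 3 counts, or 0.082 to 0.127 CPM depending on its depth.

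Of 15535 tested genes, 2372 differed (15.3% of genes tested; adjusted p under 0.05 by edgeR's quasi-likelihood test, Benjamini-Hochberg method over all tested genes): 1238 were higher (7.97%) and 1134 were lower (7.3%) in the single-antibody libraries. The differences were small. The median log2 difference was 0.175 among the higher genes and -0.175 among the lower ones, against -0.005 over all tested genes, and 113 of the called genes passed 0.5 in either direction. The sign was the same at all 3 doses in 2362 of the 2372 called genes. That follows largely from a call made on the mean of the 3 doses and is no separate result. All 6 single-antibody libraries lay above the other 6 for 539 tested genes (3.47%) and below them for 393 (2.53%). Between the combination and isotype arms 1 gene passed in the same fit, in which a dose response confined to some arms counts as spread. Set against isotype, and so sharing the isotype libraries, the genes called higher had a median log2 difference of 0.203 with anti-LAG3, 0.167 with anti-PD1 and 0.022 with both. Those called lower had -0.216 with anti-LAG3, -0.177 with anti-PD1 and -0.035 with both. These genes were picked by the contrast of the single arms with the other arms. The single-antibody medians therefore follow from that choice and are no separate result. The choice did not act on the difference between combination and isotype, so medians near that of all tested genes were likely there too.

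The count of calls fell most when the middle dose was left out. Genes called higher had a median difference of 0.203 at 0.01, 0.178 at 0.1 and 0.141 at 1 µg/ml. Those called lower had -0.195, -0.197 and -0.146. Without the 4 libraries at 0.1 µg/ml 220 genes passed, of which 215 were among the 2372 with the same sign. Without those at 0.01 µg/ml 1452 passed, and without those at 1 µg/ml 2278. With anti-PD1 at 0.01 µg/ml left out the count was 1434. It was 1455 when isotype at 0.1 µg/ml was dropped and 1506 when the combination at that dose was dropped, and 1676 to 2967 in the other 9 cases. The labels number the single-antibody libraries 2 to 8 and the combination and isotype libraries 10 to 16. Nothing in the labels says what those numbers mark, so handling in that order and the difference between single antibodies and the rest cannot be told apart.

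The design was also split into pairs that share no library, though both were read from the same fit of all 12 libraries. The pairs therefore share each gene's variance and dose terms, and genes called in both are no independent repeat. Each pair also set lower label numbers against higher ones. Anti-LAG3 against isotype called 1560 genes (10% of genes tested) and anti-PD1 against combination called 55 (0.354%). The 46 genes called in both were 2.95% of the first list and 83.6% of the second, and all 46 had the same sign. Across the 15535 genes the log2 differences of these comparisons had a Pearson correlation of 0.18 and a Spearman correlation of 0.366, given as a description, since genes are not independent and the pairs share the dose series. In the other split with no shared library, anti-LAG3 against combination called 893 genes (5.75%) and anti-PD1 against isotype 594 (3.82%). The 264 genes called in both were 29.6% of the first list and 44.4% of the second, and all 264 had the same sign (Pearson correlation 0.183, Spearman correlation 0.325).

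The genes called in opposite directions differed in base composition and in length. The median GC content of the longest annotated transcript was 58.6% for the higher genes and 42.4% for the lower ones, against 48.1% for genes that were not called. The median deposited length was 3308 bp for the higher genes and 7926 bp for the lower ones, against 4326 bp for genes not called. The stretches below show the composition for 6 genes, 3 in each direction, from those named for the smallest p. Each is 90 bases from the middle of the coding sequence of the GENCODE release 29 transcript with the longest coding sequence, 5′ to 3′, with G and C in capitals.
SIVA1, higher, coding bases 220 to 309: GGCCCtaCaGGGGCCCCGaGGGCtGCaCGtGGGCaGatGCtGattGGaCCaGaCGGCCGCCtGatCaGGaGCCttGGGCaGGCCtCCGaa
LAGE3, higher, coding bases 172 to 261: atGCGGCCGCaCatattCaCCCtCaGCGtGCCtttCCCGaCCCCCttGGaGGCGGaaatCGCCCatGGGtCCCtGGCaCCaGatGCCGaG
PDXP, higher, coding bases 400 to 489: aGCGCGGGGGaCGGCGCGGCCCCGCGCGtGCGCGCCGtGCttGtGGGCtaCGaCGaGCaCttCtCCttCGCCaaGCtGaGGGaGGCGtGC
NFAT5, lower, coding bases 2281 to 2370: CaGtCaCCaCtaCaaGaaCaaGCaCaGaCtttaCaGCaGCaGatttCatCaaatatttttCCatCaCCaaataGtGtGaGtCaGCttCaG
CENPE, lower, coding bases 4009 to 4098: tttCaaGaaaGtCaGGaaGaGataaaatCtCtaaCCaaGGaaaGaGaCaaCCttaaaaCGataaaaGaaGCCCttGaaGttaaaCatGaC
PHACTR4, lower, coding bases 1024 to 1113: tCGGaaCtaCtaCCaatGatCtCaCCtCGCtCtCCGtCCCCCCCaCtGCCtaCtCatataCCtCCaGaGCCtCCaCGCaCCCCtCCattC
G and C made up 68.9% of the SIVA1 stretch, 64.4% of the LAGE3 stretch and 74.4% of the PDXP stretch, against 40% of the NFAT5 stretch, 34.4% of the CENPE stretch and 57.8% of the PHACTR4 stretch. A stretch need not stand for its gene: the PHACTR4 stretch lay nearer to those of the higher genes than to the NFAT5 and CENPE stretches, and its whole coding sequence had 48.5% GC over 2139 bases. The other whole coding sequences had 65.5%, 67.1% and 73.1% GC over 528, 432 and 891 bases in SIVA1, LAGE3 and PDXP, against 44.8% and 35.3% over 4650 and 8106 bases in NFAT5 and CENPE.

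SIVA1 encodes an apoptosis-inducing factor that binds CD27, and had the smallest p of all (chromosome 14, 104753100 to 104768494, plus strand, GRCh38). At rising dose it had 118, 120 and 108 CPM with anti-LAG3 and 121, 107 and 101 CPM with anti-PD1. The combination gave 85.9, 93.9 and 79.2 CPM and isotype 92.3, 92.1 and 83.8 CPM. All 6 single-antibody libraries lay above the other 6, and SIVA1 was higher by 0.36 ± 0.04 log2 (SE; adjusted p = 9.33e-06). LAGE3, a subunit of the KEOPS complex that modifies tRNA (chromosome X, 154477769 to 154479257, minus strand), had 51.1, 52.4 and 52.4 CPM with anti-LAG3 and 52.1, 47.6 and 46.8 CPM with anti-PD1 at rising dose. It had 36.1, 39.5 and 37.8 CPM with the combination and 39.1, 40.7 and 37.6 CPM with isotype. The groups did not overlap, and LAGE3 was higher by 0.39 ± 0.04 log2 (adjusted p = 9.34e-06).

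NFAT5, a transcription factor of the response to osmotic stress (chromosome 16, 69565094 to 69704666, plus strand), lay lower with single antibodies. Its levels at 0.01, 0.1 and 1 µg/ml were 23.9, 22.3 and 21.9 CPM with anti-LAG3 and 22.7, 26.9 and 25.3 CPM with anti-PD1. They were 30.7, 30.7 and 28.6 CPM with the combination and 33.6, 33.5 and 29.7 CPM with isotype. No single-antibody library reached the lowest of the others, and the log2 difference was -0.38 ± 0.05 (adjusted p = 4.91e-05). CENPE, a kinesin motor of the kinetochore (chromosome 4, 103105806 to 103198409, minus strand), had 46.6, 41.9 and 42.9 CPM with anti-LAG3 and 45.03, 46.4 and 45.3 CPM with anti-PD1. It had 63.3, 59.6 and 47.7 CPM with the combination and 63.9, 62.2 and 52.6 CPM with isotype. The groups did not overlap, though the margin was 1 CPM at the highest dose of the combination, and the log2 difference was -0.37 ± 0.05 (adjusted p = 6.11e-05).

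**Figure D1:**
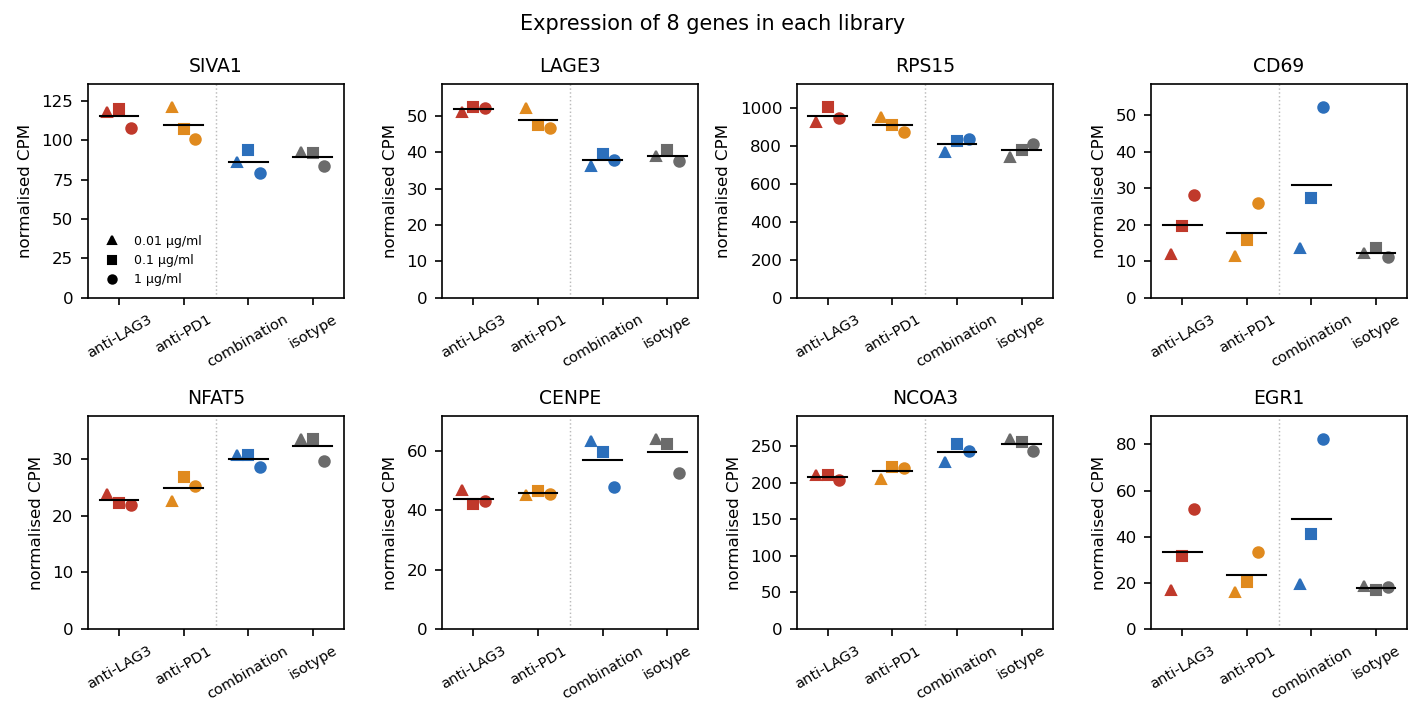
Normalised CPM of 8 genes (y axis, from 0) in each of the 12 libraries, by arm (x axis), with symbols for the dose in µg/ml and a line at the mean of the 3 libraries of an arm. SIVA1, LAGE3 and RPS15 lie higher and NFAT5, CENPE and NCOA3 lower in both single-antibody arms, left of the dotted line, at every dose, while CD69 and EGR1 follow the dose and are highest with the combination.

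Among genes with a mean of at least 5 CPM, TRAPPC5, a subunit of the TRAPP vesicle tethering complex, had the largest positive difference, 0.60 ± 0.07 log2 (adjusted p = 1.65e-05), with 13.1 ± 1.19 CPM with single antibodies and 8.635 ± 0.553 CPM in the rest (SD, n = 6 each). It was followed by ENDOG, a mitochondrial nuclease, at 0.48, FBXO44, an F-box protein, at 0.44, TMEM160 at 0.43 and HES6, a transcriptional regulator, at 0.43. PDXP, a pyridoxal phosphatase, lay at 0.42, IGFBP2, an IGF-binding protein, at 0.42, DPM3, a subunit of dolichol-phosphate mannose synthase, at 0.41, PAGR1 at 0.40 and RABGEF1, an exchange factor of RAB5, at 0.39. Of these 10, FBXO44 had overlapping groups and the other 9 did not. IGFBP2 had adjusted p of up to 0.0995 when 1 library was left out.

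MKI67, which encodes the proliferation antigen Ki-67, had the largest negative difference, -0.75 ± 0.14 log2 (adjusted p = 0.0186). Its levels ranged widely within the single-antibody libraries, 121 to 235 CPM, against 209 to 302 CPM in the others, and the groups overlapped through anti-PD1 at 0.1 µg/ml. With 1 library left out its adjusted p reached 0.0599. The B-lymphoid transcription factor gene IKZF3 averaged 64.7 ± 9.54 CPM with single antibodies and 99.3 ± 11.9 CPM in the rest (SD, n = 6 each), a log2 difference of -0.61. LRRC37A4P, a pseudogene, lay at -0.61, ZNF8, a zinc finger protein, at -0.58, NEAT1, the long noncoding RNA of paraspeckles, at -0.55, PRRC2C at -0.50 and BOD1L1, a protector of replication forks, at -0.49. The other 3 of the 10 came from the mitochondrial genome: the tRNA genes MT-TE (-0.68) and MT-TF (-0.52) and the complex I subunit MT-ND5 (-0.50).

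The relation to base composition was measured in each library as the slope of log2 CPM, after subtracting each gene's mean over the 12 libraries, on the GC content of the transcript over 13662 genes (87.9% of those tested). With anti-LAG3 the slope was 0.0577, 0.0201 and 0.0161 log2 per 10% GC at 0.01, 0.1 and 1 µg/ml, and with anti-PD1 0.0342, 0.0692 and -0.00474. With the combination it was -0.0309, -0.0161 and -0.0446, and with isotype -0.04, -0.0327 and -0.0282. All 6 single-antibody libraries lay above all 6 others. The means were 0.0321 ± 0.0275 and -0.0321 ± 0.00993 (SD, n = 6 each), a difference of 0.0642 (two-sided exact permutation test within dose, p = 0.00926, the smallest the 216 arrangements allow; 0.0278 adjusted over the 3 library measures tested). The difference was positive within each dose, 0.0814 at 0.01, 0.069 at 0.1 and 0.0421 at 1 µg/ml. Anti-PD1 at 1 µg/ml lay nearest to the other side. Since the slopes are centred on the mean of the 12 libraries, they say nothing of the composition of a library on its own.

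The slope on the deposited gene length, in log2 CPM per doubling, averaged -0.00269 ± 0.0069 with single antibodies and 0.00269 ± 0.00636 in the rest (SD, n = 6 each). The groups overlapped and the difference, -0.00538, did not pass (exact permutation test, p = 0.25; 0.25 adjusted over the 3 measures). It depended on which genes were read. Over genes of at least 10 CPM the slopes were -0.0499 to 0.000433 with single antibodies and -0.00116 to 0.0533 in the rest, a difference of -0.051 (exact permutation test, p = 0.00926). As a rank correlation with length in place of a slope, the difference was -0.198 (exact permutation test, p = 0.00926), with every single-antibody library below every other one. Length and GC fitted together left a GC difference of 0.0624 (exact permutation test, p = 0.00926) and a length difference of -0.00666 (p = 0.38 in the same exact permutation test).

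**Figure D2:**
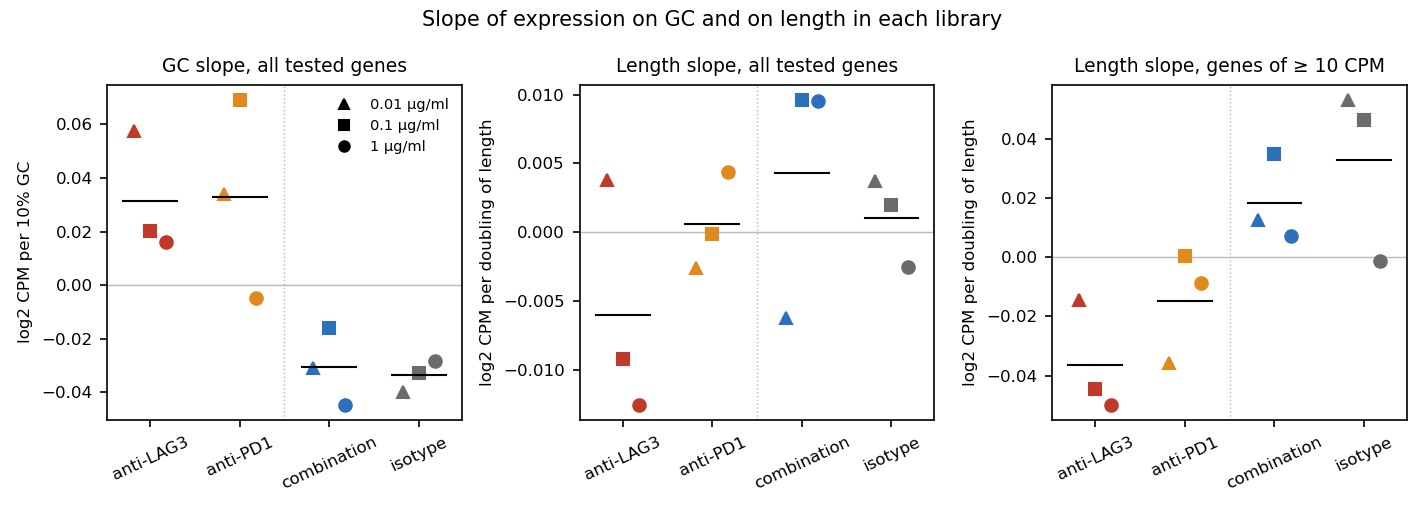
Slope of gene-centred log2 CPM on transcript GC (left, per 10% GC) and on deposited gene length (middle, all tested genes; right, genes of at least 10 CPM; per doubling of length), 1 point per library by arm, symbols for dose and a line at the arm mean. The GC slopes of the single-antibody libraries, -0.00474 to 0.0692, lie above those of the combination and isotype libraries, -0.0446 to -0.0161, and the length slopes over all tested genes overlap.

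The relation to length was not one straight line. Among protein-coding genes 25.6% of the 854 with a length of 1000 to 2000 bp were called higher and 0.937% lower. Of the 2633 protein-coding genes over 8000 bp, 2.35% were called higher and 20.7% lower. Their median log2 differences were 0.0887 and -0.0606. Below 500 bp 26 of 458 tested genes were annotated as protein coding, and the median of the 458 was -0.0881, with 3 called higher and 23 lower. GC gave an ordered series: the median ran from -0.0636 at up to 40% GC through -0.0115 at 45 to 50% to 0.111 at over 60%. Over 60% GC 25.4% of 1974 genes were called higher and 1.22% lower, and at up to 40% GC 0.329% of 2128 genes were called higher and 16.7% lower.

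Within every class of GC the median was lower for genes over 8000 bp than for those of 1000 to 2000 bp, and within every class of length above 1000 bp it was higher at each step of GC. Genes of 1000 to 2000 bp and over 60% GC had a median of 0.18 and 38% called higher. Genes over 8000 bp and at up to 40% GC had a median of -0.0922 and 28.9% called lower. Across the 12295 protein-coding genes the Spearman correlation of the log2 difference was 0.436 with the GC content of the transcript, 0.42 with that of the coding sequence, 0.363 with that of the 3′ UTR and 0.176 with that of the 5′ UTR. It was -0.346 with the deposited length, -0.296 with the coding length and -0.234 with the 3′ UTR length. Over all 15535 tested genes the correlation with deposited length was -0.172, and with transcript GC it was 0.4 over the 13662 with a value. The protein-coding genes come from the same libraries, with 5′ and 3′ UTRs annotated for 85% and 95.7% of them.

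**Figure D3:**
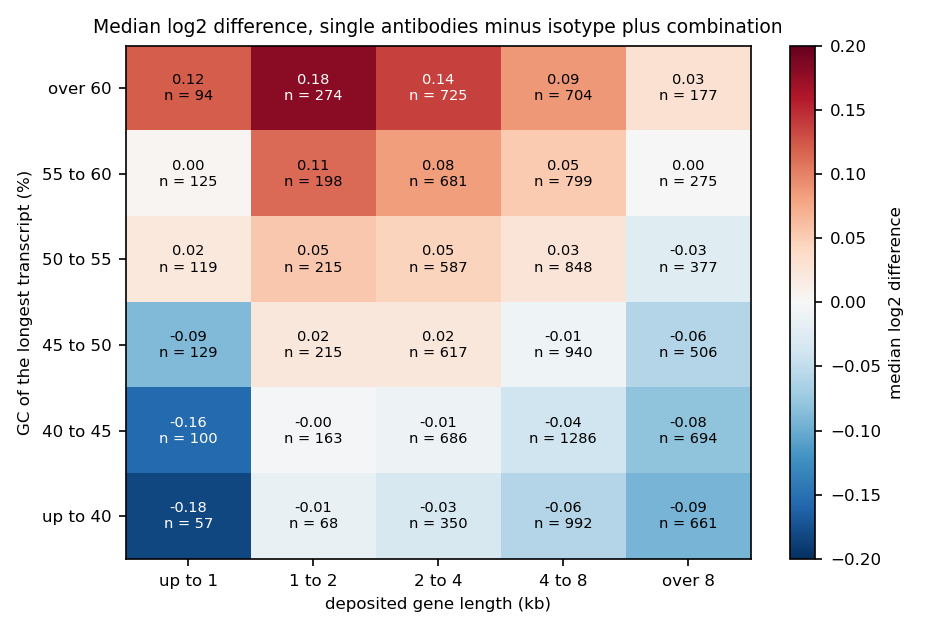
Median log2 difference (colour and first number; single antibodies minus isotype plus combination) of tested genes in classes of transcript GC (y axis) and deposited gene length in kb (x axis), with the number of genes in each class. The medians run from 0.18 for GC-rich genes of 1 to 2 kb to -0.0922 for GC-poor genes over 8 kb, and genes of up to 1 kb at up to 40% GC have -0.182.

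A correction that took the fitted trend on length and GC out of each library left 1254 genes called (8.07% of genes tested), 757 higher and 497 lower. Of the 2372 genes called before, 963 stayed called with the same sign, 552 higher and 411 lower. Among those that stayed, TRAPPC5 had a corrected difference of 0.57 and SIVA1 of 0.32 (adjusted p = 7.5e-05 for each, edgeR's quasi-likelihood test). LAGE3 had 0.28, NUBP2, an assembly factor of cytosolic iron-sulphur proteins, 0.24, and HSPBP1, a co-chaperone of HSP70, 0.18. PHACTR4, a regulator of phosphatase 1 and actin, had -0.33, CENPE -0.27, NFAT5 -0.26, BPTF, a subunit of the NURF chromatin remodeller, -0.26, and EIF5B, an initiation factor of translation, -0.20. With length alone corrected, 1643 of the 2372 stayed called with the same sign.

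Among 26 gene lists, the shares of members called lower were largest for chromatin modifiers, giant proteins and mitochondrially encoded mRNAs. The shares called higher were largest for cytosolic ribosomal proteins, cholesterol synthesis, the proteasome, glycolysis and MHC class I. Each count below from the uncorrected fit of all 12 libraries stands against 7.97% of all tested genes called higher and 7.3% called lower. After the correction for length and GC the count over all 15535 tested genes was 757 higher and 497 lower. Without the libraries at 0.1 µg/ml it was 112 higher and 108 lower of 15623. List counts from those fits stand against these lower numbers. Totals also changed with single libraries left out or with a covariate. Chromatin modifiers and giant proteins are lists of long genes, so their lower calls partly restate the relation to length. For them the nearer background is all tested genes over 8000 bp, of which 2.35% were called higher and 20.1% lower. Other lists, such as ribosomal proteins, small spliceosomal proteins, RNA polymerase II and MHC class I, had median lengths between 2000 and 4000 bp. In that class 15% of 3322 protein-coding genes were called higher and 1.96% lower.

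Of 44 chromatin modifiers with long mRNAs, 29 were lower, none was higher, and all 44 had a negative sign, with a median of -0.201 and a median length of 12956 bp. After the correction for length and GC 21 were lower, with a median of -0.134. Without the libraries at 0.1 µg/ml 13 passed, without those at 1 µg/ml 19, with isotype dropped at 0.1 µg/ml 19, and with the marker balance of the lines as a covariate 14. NCOA3, a histone acetyltransferase and nuclear receptor coactivator, had 212 ± 7.79 CPM with single antibodies and 247 ± 11.8 CPM in the rest (SD, n = 6 each; -0.22 ± 0.03 log2, adjusted p = 1.29e-04). ATRX, a remodeller that deposits histone H3.3, lay at -0.23 and NCOR1, a scaffold of histone deacetylase complexes, at -0.25. ASH1L, a histone H3 methyltransferase, lay at -0.28. ATRX did not pass after the correction, at -0.08 (adjusted p = 0.1), while NCOA3, NCOR1 and ASH1L did, at -0.15, -0.15 and -0.19.

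Giant cytoskeletal and signalling proteins had 29 of 55 members lower and none higher, with a median of -0.127 and a median length of 15417 bp. With length and GC corrected 10 of them were lower and the median was -0.025. Without the libraries at 0.1 µg/ml 8 passed, and without the combination at that dose 19. DST, a linker of the cytoskeleton, lay at -0.40, TNRC6A, a scaffold of microRNA silencing, at -0.27, and VPS13B, a lipid transfer protein, at -0.19. After the correction TNRC6A passed at -0.19, whereas DST and VPS13B had -0.19 (adjusted p = 0.071) and -0.07 (adjusted p = 0.17). REV3L, the catalytic subunit of a translesion polymerase and not a member of that list, lay at -0.40 and stayed called at -0.29.

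The 13 mRNAs of the mitochondrial genome all had a negative sign, with a median of -0.324. The 5 that passed were MT-ND5, MT-ND6, MT-ND4, MT-ND4L and MT-ATP8, the first 4 subunits of complex I and the last of ATP synthase. MT-ND5 averaged 1875 ± 237 CPM with single antibodies and 2635 ± 126 CPM in the rest (SD, n = 6 each), and the groups of 10 of the 13 did not overlap. The lowest library was anti-LAG3 at 1 µg/ml, and without it 10 members passed, with a median of -0.239. The number of calls in this list was unsteady, at 2 to 10 with 1 library left out, 10 by DESeq2, 1 without the libraries at 0.01 µg/ml and 1 after the correction, while the median stayed between -0.389 and -0.239 in all 25 alternatives. Of 19 tested mitochondrial tRNA genes, a group formed after the values were seen, 8 were lower, with a median of -0.458. After the correction 1 was lower and the median was -0.157.

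Cytosolic ribosomal proteins, the proteins of the translating ribosome, had 30 of 79 members higher and none lower, with a median of 0.082. After the correction 24 were higher. Without the libraries at 0.1 µg/ml 2 passed, and 19 without either anti-LAG3 or isotype at that dose. RPS15 had 938 ± 43.8 CPM with single antibodies and 795 ± 37.8 CPM in the rest (SD, n = 6 each), a log2 difference of 0.24 ± 0.03 (adjusted p = 1.2e-04). RPS3 and RPS9 lay at 0.21 and 0.19. Pseudogenes with near-identical sequence make the counts of this family uncertain. By dose the median of the list was 0.11 at 0.01 and 0.1 µg/ml and 0.0236 at 1 µg/ml.

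Mitochondrial ribosomal proteins had 14 of 77 members higher and 1 lower (median 0.0729), led by MRPL41 at 0.31 and MRPL38 at 0.39, with MRPL14 at 0.23 and MRPS12 at 0.21. The share higher, 18.2%, lay near the 15% of all protein-coding genes of 2000 to 4000 bp, and the median length of the list was 2539 bp. Nuclear-encoded subunits of the respiratory chain had 21 of 76 higher and 1 lower (median 0.0687). CYC1, cytochrome c1 of complex III, lay at 0.21, UQCRC1, a core subunit of the same complex, at 0.18, and the complex I subunits NDUFA8 and NDUFS7 at 0.21 and 0.20. The nuclear-encoded and the mitochondrially encoded subunits thus had medians of opposite sign. Corrected for length and GC, 13 of the mitochondrial ribosomal proteins and 19 of the nuclear-encoded subunits were higher and none was lower. MRPL41 and CYC1 did not pass after that correction, at 0.12 (adjusted p = 0.0694, edgeR's quasi-likelihood test) and 0.09 (adjusted p = 0.0961). Without the libraries at 0.1 µg/ml 2 of each list were higher. For the nuclear-encoded subunits the count was 9 with anti-PD1 at 0.01 µg/ml dropped and 13 with anti-LAG3 at 1 µg/ml dropped. Dropping isotype at 1 µg/ml gave 32 nuclear-encoded subunits and 29 mitochondrial ribosomal proteins, and 22 and 23 of the mitochondrial ribosomal proteins were higher with anti-LAG3 at 0.01 or anti-PD1 at 1 µg/ml dropped.

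Proteasome subunits had 11 of 31 members higher and 1 lower (median 0.0772), and 10 higher after the correction. PSMA7, a subunit of the core particle, had 439 ± 11.3 CPM with single antibodies and 374 ± 16.2 CPM in the rest (SD, n = 6 each; 0.23 ± 0.03 log2, adjusted p = 1.06e-04) and kept its call in all 25 alternatives. PSMB5 and PSMB4, further subunits of the core, lay at 0.18 and 0.15, and PSMC3, an ATPase of the base, at 0.13. Glycolysis had 8 of 26 members higher and none lower, among them PFKL and PFKP, the phosphofructokinases of liver and platelet type, at 0.16 and 0.15, and PGAM1, a phosphoglycerate mutase, at 0.18. Cholesterol synthesis had 10 of 28 higher and 2 lower. PMVK, a kinase of phosphomevalonate, lay at 0.22, TM7SF2, a sterol reductase, at 0.19, and LSS, lanosterol synthase, at 0.16. After the correction 5 glycolysis genes and 6 genes of cholesterol synthesis were higher and none of either list was lower. Without the libraries at 0.1 µg/ml 1 proteasome subunit was higher and none of the genes of the other 2 lists. Without either anti-LAG3 at 1 µg/ml or anti-PD1 at 0.01 µg/ml 5 proteasome subunits were higher, and with the same anti-PD1 library dropped 6 genes of cholesterol synthesis. Cholesterol synthesis had 4 higher without the libraries at 0.01 µg/ml. Glycolysis had 5 calls when isotype at 0.01 µg/ml or any one library at 0.1 µg/ml was dropped.

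**Figure D4:**
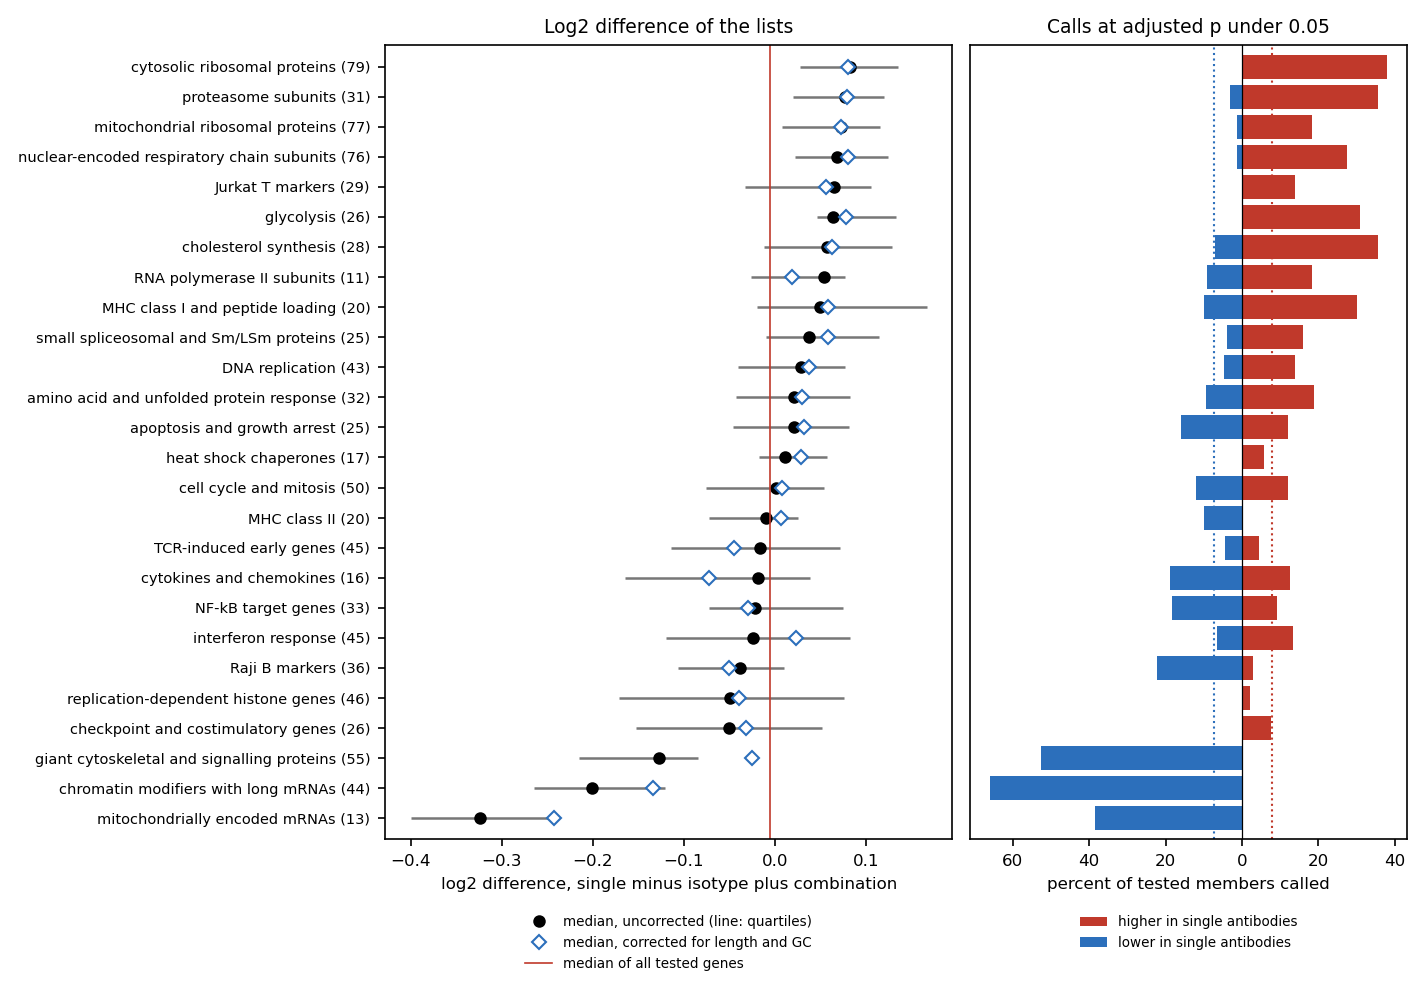
Left, median log2 difference of 26 gene lists (single antibodies minus isotype plus combination; filled points, lines from the lower to the upper quartile; open diamonds, median after the correction for length and GC; tested members in parentheses). Right, percent of tested members called higher (red, to the right) or lower (blue, to the left), with dotted lines at 7.97% and 7.3% of all tested genes. Chromatin modifiers, giant proteins and mitochondrially encoded mRNAs lie lowest, and ribosomal proteins and proteasome subunits highest.

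Genes of the immune response, the readout of checkpoint blockade, were called in both directions. Of 45 TCR-induced early genes 2 were higher and 2 lower, with a median of -0.016, or 0.15 with the marker balance of the lines as a covariate. JUNB, a subunit of AP-1, lay at 0.14 and DUSP1, a phosphatase of MAP kinases, at 0.22, while ZFP36L1, an RNA-binding protein that promotes mRNA decay, lay at -0.23 and NFKBID, an atypical IκB protein, at -0.44. JUNB and DUSP1 did not pass after the correction for length and GC, at 0.02 and 0.19, and ZFP36L1 and NFKBID did, at -0.22 and -0.54. At 1 µg/ml the mean level of the 45 genes was 3.98 log2 CPM with anti-LAG3, 3.76 with anti-PD1 and 4.38 with the combination, against 3.45 with isotype. At 0.01 µg/ml it lay between 3.414 and 3.455 log2 CPM in all 4 arms.

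CD69, an early activation antigen, had 12.1, 19.5 and 28.1 CPM with anti-LAG3 and 11.5, 15.9 and 26.0 CPM with anti-PD1 at 0.01, 0.1 and 1 µg/ml. The combination gave 13.6, 27.3 and 52.2 CPM, against 12.2, 13.5 and 11.2 CPM with isotype. The single-antibody levels lay between those of the combination and isotype at 0.1 and 1 µg/ml, and the log2 difference was -0.05 ± 0.24 (SE; adjusted p = 0.921), or -0.13 at 0.01, -0.12 at 0.1 and 0.16 at 1 µg/ml. EGR1, an immediate early transcription factor, had 16.7, 31.6 and 52.1 CPM with anti-LAG3 and 16.2, 20.6 and 33.5 CPM with anti-PD1. It had 19.7, 41.2 and 82.5 CPM with the combination and 18.6, 16.9 and 18.2 CPM with isotype. Its log2 difference was -0.07 ± 0.26 (SE; adjusted p = 0.895). A departure from additivity was not detected for either gene, and their standard errors exceed the median size of the called differences, 0.175. The fit counts a dose response that differs between arms as spread, so these genes were hardly testable here. The slope of EGR1 on log10 dose was 0.82, 0.52 and 1.03 log2 with anti-LAG3, anti-PD1 and the combination, and -0.01 with isotype. That of CD69 was 0.61, 0.58, 0.97 and -0.06.

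**Figure D5:**
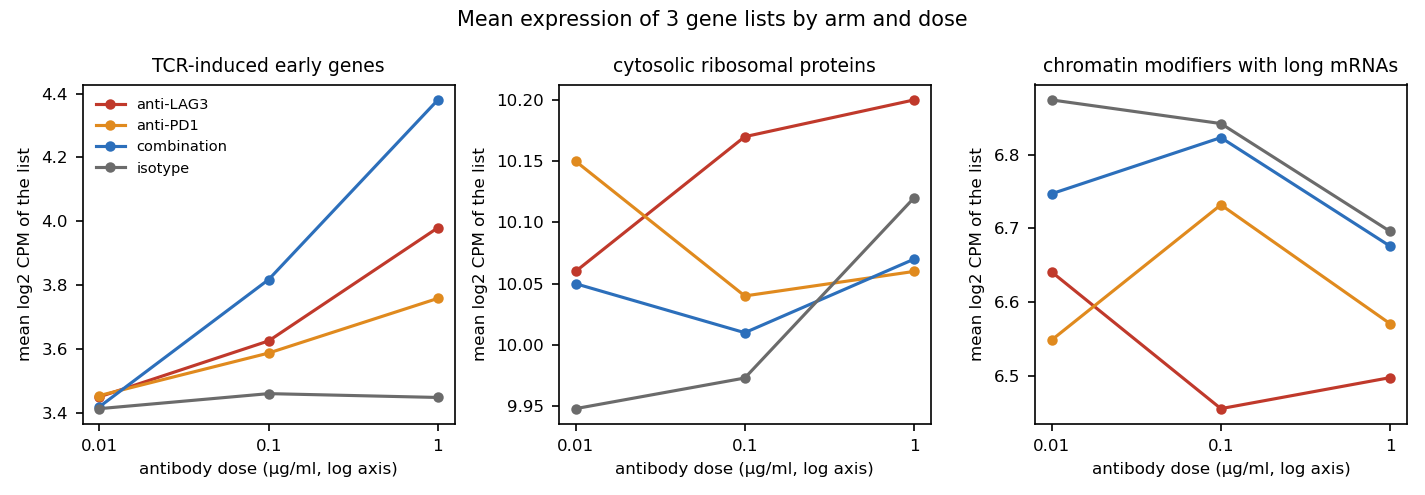
Mean log2 CPM of 3 gene lists (y axis) by antibody dose (x axis, µg/ml, log axis) in the 4 arms, 1 library per point. TCR-induced early genes are higher at each step of dose in the antibody arms and highest with the combination (4.38 at 1 µg/ml), while chromatin modifiers lie lower in the single-antibody arms (6.456 to 6.732) than in the combination and isotype arms (6.676 to 6.874) at each dose.

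Cytokines and chemokines had 2 of 16 tested members higher and 3 lower. IL32 averaged 57.6 ± 3.38 CPM with single antibodies and 47.5 ± 3.14 CPM in the rest (SD, n = 6 each; 0.28 ± 0.04 log2, adjusted p = 2.88e-04), and LTB, lymphotoxin beta, lay at 0.12. LTB had 0.01 after the correction for length and GC (adjusted p = 0.87) and lost its call in 8 of 25 alternatives. TNF averaged 7.79 ± 1.14 CPM with single antibodies and 9.74 ± 0.727 CPM in the rest, a log2 difference of -0.32, and CCL22, a chemokine made by B cells among others, lay at -0.19. NF-kB target genes had 3 of 33 higher and 6 lower. REL, an NF-kB subunit, lay at -0.34, BIRC3, an inhibitor of apoptosis, at -0.18, ICAM1, an adhesion molecule, at -0.17 and FAS, a death receptor, at -0.17. The interferon response had 6 of 45 higher and 3 lower. ISG15, a ubiquitin-like modifier, was higher by 0.31 ± 0.04 log2 (adjusted p = 2.64e-05), whereas IFI16, a DNA sensor, and EIF2AK2, the kinase PKR, lay at -0.21 and -0.23. Without the libraries at 0.1 µg/ml none of the NF-kB target genes was called. In that fit the interferon response had 1 gene higher and 1 lower, and cytokines and chemokines had 1 higher and 0 lower.

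MHC class I and peptide loading had 6 of 20 members higher and 2 lower. PSMB8 and PSMB10, subunits of the immunoproteasome, lay at 0.20 and 0.25, and the peptide transporter subunits went apart, with TAP1 at 0.16 and TAP2 at -0.11. Neither TAP1 nor TAP2 passed after the correction for length and GC, at 0.12 and -0.08 (adjusted p = 0.0526 and 0.0688, edgeR's quasi-likelihood test). TAP2 lost its call in 11 of 25 alternatives and TAP1 in 2. After the same correction 2 members of the list were higher and 1 lower, and without the libraries at 0.1 µg/ml none was called. Dropping anti-PD1 at 0.01 µg/ml left 2 higher, and dropping 0.1 µg/ml of anti-LAG3, combination or isotype left 3. With 1 library dropped 2 to 3 of the higher calls in the class I list passed for anti-PD1 at 0.01 µg/ml and for anti-LAG3, the combination or isotype at 0.1 µg/ml. MHC class II had none of 20 higher and 2 lower, CIITA, its master regulator, at -0.16 and HLA-DQA1 at -0.10, and HLA-DQA1 lost its call in 19 of 25 alternatives. Checkpoint and costimulatory genes had 2 of 26 higher and none lower: LGALS9, galectin-9, at 0.18 and TNFSF9, the ligand of 4-1BB, at 0.16.

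Cell cycle and mitosis genes were split, with 6 of 50 higher and 6 lower (median 0.002). CDK4, the kinase of entry into the cycle, BIRC5, survivin, and CKS1B, a binding subunit of cyclin-dependent kinases, lay at 0.19, 0.17 and 0.16, while CENPE, CENPF, ASPM, MKI67, FOXM1 and KIF11 were lower. CENPE, CENPF, ASPM and MKI67 are also members of the list of giant proteins. After the correction for length and GC 6 were higher and 4 lower, and without the libraries at 0.1 µg/ml 1 was higher and 3 lower. With isotype at 1 µg/ml dropped 10 were higher, and 3 were lower with anti-PD1 at 0.01 µg/ml or either the combination or isotype at 0.1 µg/ml dropped. DNA replication had 6 of 43 higher and 2 lower: POLD1, the catalytic subunit of polymerase delta, lay at 0.18, TK1, thymidine kinase, at 0.20 and MCM2, a subunit of the replicative helicase, at 0.15, while RFC1, the large subunit of the clamp loader, lay at -0.17. Histone genes had 1 of 46 higher, HIST3H2A at 0.37, and none lower.

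Apoptosis and growth arrest had 3 of 25 higher and 4 lower. CDKN2C, an inhibitor of CDK4 and CDK6, lay at 0.18 and the BH3-only gene BAD at 0.28, while BCL2L11, another BH3-only gene, lay at -0.15. The amino acid and unfolded protein response had 6 of 32 higher and 3 lower, with PHGDH, the first enzyme of serine synthesis, at 0.16, TRIB3, a pseudokinase induced by stress, at 0.20, SDF2L1, an endoplasmic reticulum protein, at 0.25 and SLC7A11, the cystine transporter, at -0.17. PHGDH stood at 303 to 314 CPM in the single-antibody libraries and 272 to 283 CPM in the others, with no overlap. Small spliceosomal proteins had 4 of 25 higher and 1 lower, RNA polymerase II subunits 2 of 11 higher and 1 lower, and heat shock chaperones 1 of 17 higher, DNAJB1 at 0.15. The spliceosomal and polymerase shares higher, 16% and 18.2%, lay near the 15% of all protein-coding genes of 2000 to 4000 bp. SNRPB, a core Sm protein, lay at 0.18, POLR2I, a small polymerase subunit, at 0.23 and POLR2A, the largest one, at -0.15. Dropping isotype at 1 µg/ml gave 10 higher spliceosomal genes and dropping the combination at 0.01 µg/ml gave 7. After the correction for length and GC none of the polymerase subunits was higher, and without the libraries at 0.1 µg/ml none of either list was called.

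Of 29 Jurkat T markers 4 were higher, namely LCK and ZAP70, kinases of T cell receptor signalling, at 0.21 and 0.20, CD247, its zeta chain, at 0.15 and CD1E at 0.27, and none was lower. With 1 library dropped 2 to 11 were higher: 2 without anti-LAG3 at 1 µg/ml, anti-PD1 at 0.01 or 0.1 µg/ml or either the combination or isotype at 0.1 µg/ml, 8 with isotype at 1 µg/ml dropped and 11 with the combination at 0.01 µg/ml dropped. None was higher without all 4 libraries at 0.1 µg/ml. CD247 and CD1E lost their calls in 9 and 11 of 25 alternatives. Of 36 Raji B markers 1 was higher, the receptor subunit CD79B, and 8 were lower, among them the transcription factors EBF1 and PAX5 and the kinase BTK at -0.20, -0.14 and -0.14. Dropping a library left 3 to 5 lower B markers for anti-LAG3 at 0.1 or 1 µg/ml, anti-PD1 at 0.01 or 1 µg/ml and the combination at 0.1 µg/ml. Without all 4 libraries at 1 µg/ml 5 B markers were higher and 3 lower, and their median was 0.006 in place of -0.038. No B marker was called without the 4 libraries at 0.1 µg/ml. The mean log2 CPM of T markers minus that of B markers averaged -1.7 ± 0.0911 with single antibodies and -1.79 ± 0.0685 in the rest (SD, n = 6 each), a difference of 0.0898 (exact permutation test, p = 0.13; 0.195 adjusted over the 3 measures). The median of the markers in place of the mean reversed the sign, to -0.137 (exact permutation test, p = 0.0741). With this balance as a covariate 1512 genes were called, 1265 of them as before. In such mixed samples fewer cells of a line and less RNA per cell cannot be told apart.

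The second question was whether the difference changed with dose. No gene passed (0% of genes tested; edgeR's quasi-likelihood test, Benjamini-Hochberg method), with 1029 genes at an unadjusted p under 0.05, 0 calls by DESeq2, and a smallest adjusted p of 0.275. ATP6V0C, a subunit of the vacuolar proton pump, RPL13P12, a ribosomal protein pseudogene, and ANXA1, annexin A1, had the smallest p. ANXA1 had 24.5, 25.6 and 25.6 CPM with anti-LAG3 and 23.2, 22.4 and 20.9 CPM with anti-PD1 at rising dose, against 24.8, 16.8 and 12.8 CPM with the combination and 24.8, 25.1 and 22.2 CPM with isotype. The combination alone carried the low values. Within doses, the genes called higher had a median difference of 0.203 at 0.01, 0.178 at 0.1 and 0.141 at 1 µg/ml, and those called lower -0.195, -0.197 and -0.146.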

How the data were processed

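Raw counts per gene symbol, with a gene length in base pairs per the file headers, were deposited in one table. The submitters' processing notes name STAR 2.5.2b, Trimmomatic 0.36, Subread 1.5.2 with featureCounts, and GRCh38. Strand setting and multi-mapping rule were not given in the sources used here, so overlapping genes and near-identical copies are uncertain. The labels give polyA RNA as the molecule and a total RNA extraction. The table held 55782 symbols, and 4 count columns that match no sample were not used. Columns were matched to samples by the number in their labels. The authors' comparison tables were not used.

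Counts were filtered with filterByExpr by arm (minimum count 10), scaled with TMM and fitted with edgeR 4.0.16 (R 4.3.3; arm plus dose as a factor, robust quasi-likelihood, 6 residual degrees of freedom). The contrast was the mean of both single-antibody arms minus the mean of the combination and isotype arms, which is minus 0.5 times the departure from additivity. A second fit used a slope on log10 dose per arm (4 residual degrees of freedom). Both fits were also run on simulated counts, drawn independently for each gene without a trend on length or GC and without a dose response. Those runs say nothing about calls in data with such trends. Log2 CPM used a prior count of 2, and an SE is the log2 difference divided by the root of its F statistic. The correction for length and GC removed a loess surface (span 0.5) per library, with genes lacking a GC value set at the median. GC, coding sequences and coordinates came from GENCODE release 29 (GRCh38), matched by symbol for 13668 tested genes; the deposited length equalled its union of exons for 90.7% of them. Library measures were compared by exact permutation of sides within dose. Doses are shared by the arms and enter as the block; nothing else pairs libraries. Depth was 23593973 to 36581754 counts, and limits at 0 counts (3 counts) cover counting error only.

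Named genes were LAG3, PDCD1, CD274, IL2, IFNG, CD69 and EGR1; of called genes at 5 CPM or more with the same sign at all 3 doses, the 10 with the largest difference and the 5 with the smallest p in each direction; the 3 with the smallest p for the dose slope; up to 4 called members of each of 26 lists; and the 5 with the smallest p in each direction that stayed called after the length correction. CD79B, MT-ATP8, CENPF, ASPM, FOXM1 and KIF11 were named after their values were seen. The comparison and the lists were chosen with earlier results of these data known. Alternatives were DESeq2 1.42.0, other scalings and filters, corrections, covariates, and libraries or doses left out.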

Additional observations from a re-analysis of the deposited data

Results flagged for a closer look

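Within 256 sets of 6 libraries of a side (125 named genes and 3 library measures), the lowest or highest library stood apart from the other 5 in 11 cases by Dixon's test at the 95% level; chance gives about 1 in 20. Values are log2 CPM. Anti-LAG3 at 1 µg/ml was the lowest single-antibody library for MT-ND5 (10.5), MT-ND6 (9.13) and MCM2 (8.47) and the highest for NDUFA8 (6.06). Anti-PD1 was lowest at 1 µg/ml for POLR2I (4.8) and highest at 0.1 µg/ml for NFKBID (3.85) and at 0.01 µg/ml for PGAM1 (9.02). On the other side, the combination at 1 µg/ml was lowest for IGFBP2 (5.02) and CD1E (2.93) and highest for TAP2 (7.11), and isotype at 1 µg/ml was lowest for NFKBID (3.35).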

How the results depend on the processing

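The count of 2372 genes stayed within 1.5 times under DESeq2 (2043), other scalings (2359 and 2360), other filters (2397 and 2463), the length correction (1887), no replicate block for dose (2249, arm alone) and the 2 sides plus dose (2299). It moved to 1254 with length and GC corrected, 1512 with the marker balance as covariate, 220 without the 0.1 µg/ml libraries and 1452 without the 0.01 µg/ml ones, and ranged from 1434 to 2967 with 1 library left out. Length correction moved the share of higher calls to 65.2%, against 52.2%. The dose-slope count of 0 became 14 with no filter, 4 with length and 4 with length and GC corrected, 8 with the marker covariate, and 0 to 5 with 1 library left out. The GC slope difference, single antibodies against isotype plus combination, kept its sign and call over genes of at least 10 CPM (0.069) and with sides permuted over all 12 libraries (exact permutation p = 0.00216), and ranged from 0.0568 to 0.0716 with 1 library left out. The length slope difference passed at 10 CPM or more (-0.051) and as a rank correlation (-0.198). The T minus B difference passed once markers under 10 CPM were dropped (0.116; p = 0.0463, exact permutation) and reversed with their median (-0.137). The 119 named genes that were called never changed sign; 37 kept their call in every alternative and 31 lost it with length and GC corrected. Signs turned for 5 uncalled genes: PDCD1 (-0.0403, length and GC), CD274 (0.012), ANXA1 (-0.0212), EGR1 (0.204) and CD69 (0.217) with the marker covariate, EGR1 and CD69 also without the 0.01 µg/ml dose (0.0348 and 0.018), and with 1 library left out EGR1 ranged from -0.277 to 0.144 and CD69 from -0.273 to 0.13. The causes were not tested. One library per arm and dose limits every statement.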

Other observations

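Some classes of transcript were described outside the lists, formed after the values were seen. Over all 15535 tested genes 7.97% were higher and 7.3% lower, and after the correction for length and GC 757 were higher and 497 lower. Of 393 zinc finger genes named ZNF and a number, 11 were higher and 53 lower with single antibodies, with a median of -0.0631, a median GC content of 43.5% and, after the correction for length and GC, 3 higher and 16 lower. Of 31 small nucleolar RNA genes, none was higher and 5 were lower, with a median of -0.272, and after the correction 1 was lower, with a median of -0.197. Processed pseudogenes had a median of -0.14 over 301 genes, with 3 higher and 9 lower; after the correction 5 were higher and 3 lower, with a median of -0.0823. Antisense genes had 3 of 284 higher and 13 lower, and none higher and 6 lower after the correction. Long intergenic RNAs had 3 of 201 higher and 7 lower, and 2 higher and 4 lower after it. Before the correction, 2.99% of processed pseudogenes, 4.58% of antisense genes and 3.48% of long intergenic RNAs were lower. The shares higher were 0.997%, 1.06% and 1.49%. These classes were thus called less often than all tested genes in both directions.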
